A study of Homo sapiens with 6 samples.

Results

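Transcripts of 33 genes that fold, export, retrieve and degrade proteins in the endoplasmic reticulum (ER), or that sense misfolded proteins there, were followed in MDA-MB-231 cells after an siRNA against parathyroid hormone-related protein (PTHrP). The genes were listed by name. A probe set of the array counted as a member where the array's annotation gave one of these genes alone, by its current or an older symbol, and 1 probe set not named in that annotation was taken as that of KDELR2. This gave 58 of 22283 probe sets, for 32 of the 33 genes, out of 11961 genes named on the array. The transcript of SEC61G, a small subunit of the translocation channel, was not analysed here, but its promoter was among those searched.

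MDA-MB-231 is an established human breast cancer line of mesenchymal-like character. Cells were electroporated with siPTHrP or with siLuc, an siRNA against luciferase that served as the control, and RNA was taken 3 days later. There were 3 independent experiments, each with 1 siLuc and 1 siPTHrP RNA on its own array, so that each group held 3 arrays and every group shared the cell line and the electroporation. The siRNA acts for a limited time in the whole culture, and a change in the amount of a transcript per cell and a change in the mix of cells cannot be told apart in such RNA. The level of the targeted transcript was not analysed here.

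Proteins bound for secretion or for membranes enter the ER through the SEC61 channel, are folded there by chaperones, lectins and disulfide isomerases, and leave in coated vesicles. When unfolded proteins accumulate, the sensors ATF6, PERK (gene EIF2AK3) and IRE1 (gene ERN1) start the unfolded protein response, which raises transcription of chaperones and of the degradation machinery and slows translation. The sensors are switched on as proteins, by cleavage, phosphorylation and splicing of XBP1 RNA, so that their transcript levels do not measure their activity.

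Many promoters of the system carry the ER stress response element (ERSE), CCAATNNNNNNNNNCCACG, or the shorter ERSE-II, ATTGGNCCACG, where N is any base. Both were searched on both strands of RefSeq promoter windows (GRCh38.p14, 250 bases before to 50 after each annotated start), which were found for 31 of the 33 genes and not for PDIA3 and KDELR2. ERSE was found in 9 of the 38 member windows (23.7%) and in 27 of all 35116 windows (0.0769%). These 9 windows belonged to CALR, CANX, HSP90B1, HSPA5, PDIA6, SERP1 and XBP1, and the windows of CANX overlap and share 1 match. ERSE-II was found in 3 member windows (7.89%), those of HERPUD1, HYOU1 and SDF2L1, and in 19 of all windows (0.0541%). The short element CCACG alone stood in 78.9% of member windows and 38.1% of all, CCAAT in 81.6% and 34.6%, and TGACGT, a core shared by other stress elements and cAMP elements, in 15.8% and 7.98%. Matches to ERSE and ERSE-II hold a CCACG, and those to ERSE also a CCAAT, so these counts overlap. A match is a stretch of letters and not a tested site.

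The stretches around the match are shown for HSPA5, the best known target of this element, and for the members with a match that had the highest (XBP1, HERPUD1) and lowest (CALR, SDF2L1) folds of siPTHrP over siLuc. They are written along the gene's strand, with the match in capitals. In CALR and SDF2L1 the element lies on the opposite strand and appears reversed.
HSPA5: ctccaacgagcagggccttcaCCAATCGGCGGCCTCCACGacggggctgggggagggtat
XBP1: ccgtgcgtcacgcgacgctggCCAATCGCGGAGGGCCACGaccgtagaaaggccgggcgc
CALR: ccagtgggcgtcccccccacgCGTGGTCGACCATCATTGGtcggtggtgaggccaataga
HERPUD1: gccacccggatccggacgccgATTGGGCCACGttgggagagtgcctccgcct
SDF2L1: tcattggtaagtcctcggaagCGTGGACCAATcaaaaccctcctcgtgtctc

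These stretches lie at chr9:125241371-125241430 (HSPA5, minus strand), chr22:28800583-28800642 (XBP1, minus strand), chr19:12938363-12938422 (CALR, plus strand), chr16:56932004-56932055 (HERPUD1, plus strand) and chr22:21642093-21642144 (SDF2L1, plus strand). The match reached from 66 to 48 bases before the annotated start in HSPA5 and from 52 to 34 in XBP1. It lay farther out, from 225 to 207 bases, in CALR, from 117 to 107 in HERPUD1 and from 188 to 178 in SDF2L1.

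The arrays gave linear MAS5 signals. Of 7 markers of mesenchymal-like breast cancer lines 5 passed the filter on low signal, and S100A4 and SPARC, with medians of 373.5 and 151.5, did not. VIM, a mesenchymal filament protein, had signals of 96460 to 154400 over the 6 arrays and AXL 29170 to 45710, while the epithelial adhesion genes CDH1 and EPCAM did not exceed 436 and 342. Of 10 luminal epithelial markers 7 passed the filter, with medians up to 1068. All 3 leukocyte markers on the array and 2 of 3 endothelial ones did not pass it. The siLuc array of experiment 1 stood apart: its rank correlation with the others was 0.716 to 0.725, where the other 5 gave 0.882 to 0.960, and its added hybridisation controls had a geometric mean of 273100 against 10840 to 41430 elsewhere. It was the highest array in 13 of the 54 member probe sets that passed the filter (24.1%) and the lowest in another 13, where these shares were 30.2% and 33.8% over all probe sets. Folds without it are therefore given for a part of the members, and not for every one that it moved.

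Members were bright, with a median signal of 3907 over their 58 probe sets against 649.1 over all probe sets. The filter kept 54 of them, for 31 genes. No member passed the test. With limma, the experiment as a block and Benjamini-Hochberg adjustment over 13329 probe sets, 0 of 54 had an adjusted p under 0.05, as did 0% of all, with 0.321 as the smallest value of a member. Before adjustment 6 member probe sets, or 11.1%, had a p under 0.05, where the share over all probe sets was 12.1%. Of these 6, 3 were higher with siPTHrP (XBP1, HERPUD1, SSR1), where 6.77% of all probe sets were, and 3 were lower (ATF6, CALR, KDELR2), where 5.36% were. By probe set the members' share was thus near the background. By gene, from the brightest kept probe set, it was 6 of 31 (19.4%), where 12.6% of all 8121 genes had such a p. No test compared these shares.

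Taken 1 value a gene, from its brightest probe set, 23 of 31 member genes (74.2%) lay above 0 and 8 below, with folds from 0.294 to 1.55. Their median log2 fold change was 0.13, and over all 8121 genes it was 0.033, with 52.7% above 0. Brighter genes as a whole lay higher. With the filter raised to the 60th percentile the median over all genes was 0.094 and that of the members 0.15. The median signal of each siPTHrP array (559 to 593) lay below that of each siLuc array (652 to 887). Values with arrays centred on their medians are given at the end. The members' median was 0.29, 0.062 and 0.003 in experiments 1, 2 and 3, against 0.088, -0.037 and -0.004 over all genes. The members' median was thus largest in the pair that holds the outlying siLuc array; its part in the result was not tested beyond the values given here. Without that array and with no block the members' median was 0.079, with 19 of 30 genes above 0, and that of all genes was -0.025. All 3 experiments gave differences of 1 sign in 19 of the 54 member probe sets (35.2%), 13 higher and 6 lower, and in 38.1% of all. The 3 siPTHrP arrays lay above all 3 siLuc arrays in 4 member probe sets (7.41%, background 8.94%) and below them in 2 (3.7%, background 9.69%).

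**Figure D1:**
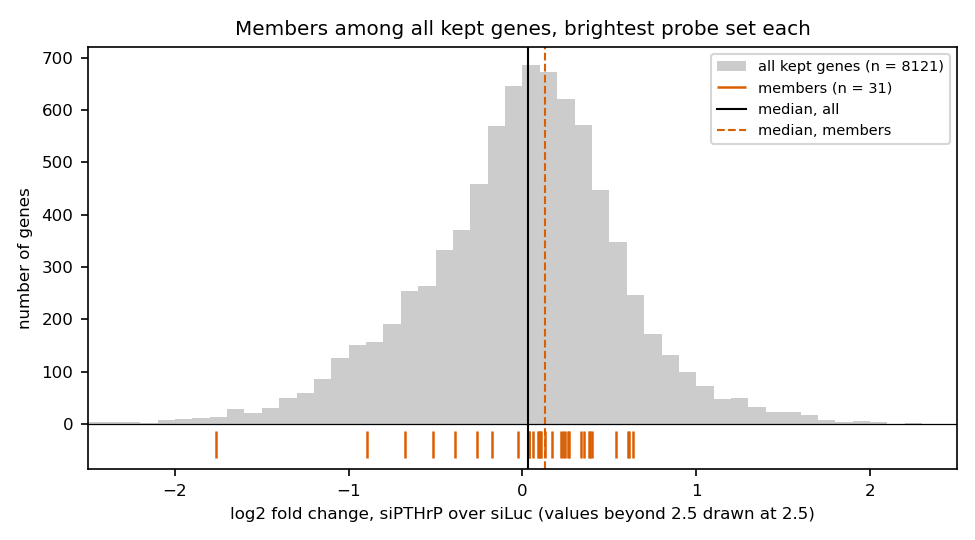
Log2 fold changes (siPTHrP over siLuc, x axis) of all 8121 kept genes, 1 brightest probe set each, as a histogram of the number of genes (y axis), with the 31 member genes as ticks. The dashed line, the members' median of 0.13, lies close to the solid line, the median of all genes at 0.033, and ATF6 is the tick farthest to the left.

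Among sensors and their effectors, 2 of 5 genes lay above 0, with XBP1 the highest and ATF6 the lowest of all 31 members. ATF6 is the ER membrane protein whose released domain is a transcription factor. Its probe set 203952_at gave signals of 2417, 1160 and 1720 on the siLuc arrays of experiments 1, 2 and 3 and of 883, 343 and 377 on the siPTHrP arrays. All 3 siPTHrP arrays were below all siLuc arrays. The means were 1766 ± 630 and 534.3 ± 302 (SD, n = 3), and the model's log2 fold change was -1.76 (SE 0.39), or 0.294-fold, with a limma adjusted p of 0.321. Within experiments the log2 difference was -1.436, -1.712 and -2.143.

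The other probe set of ATF6, 217550_at, did not share this direction. Its mean was lower than that of 203952_at with siLuc (565.7) but higher with siPTHrP (730.7). It read 185.1, 908 and 604 with siLuc and 826, 894 and 472 with siPTHrP, and the groups overlapped. Its log2 difference was 2.066 in experiment 1, where the siLuc array was the lowest of the 6, and -0.022 and -0.345 in the others. Without experiment 1 it stood at 0.880-fold and 203952_at at 0.263-fold. Without only the siLuc array of that experiment these were 0.952-fold and 0.352-fold.

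XBP1 encodes the transcription factor that IRE1 activates by splicing its RNA, and the array does not separate the spliced form. Its signal was 2008, 2270 and 1700 with siLuc and 3905, 3175 and 2359 with siPTHrP. All siPTHrP arrays were above all siLuc arrays, the closest being siPTHrP of experiment 3 and siLuc of experiment 2. The model gave 1.55-fold (log2 0.64, SE 0.24, limma adjusted p = 0.390), and 1.56-fold without the siLuc array of experiment 1.

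EIF2AK3, the gene of the kinase PERK, was near the filter. It read 1268, 364 and 153 with siLuc and 533, 350 and 375 with siPTHrP. The log2 differences of -1.225, -0.054 and 1.21 in the 3 experiments had no common sign, and the estimate was 0.984-fold. The siLuc array of experiment 1 was its highest, and without this array the probe set did not pass the filter, so no fold is given. DDIT3 encodes CHOP, a transcription factor induced downstream of PERK. It read 3116, 2933 and 4885 with siLuc and 2824, 2778 and 3313 with siPTHrP, which is lower within each experiment but with overlapping groups (0.836-fold, limma adjusted p = 0.608).

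PPP1R15A encodes GADD34, which directs the phosphatase that restores translation after PERK has acted. Its brightest probe set, 37028_at, gave 7926, 10072 and 25239 with siLuc and 17120, 14331 and 18809 with siPTHrP. The siLuc array of experiment 3 was the highest of the 6, and the siLuc array of experiment 1 the lowest. It stood at 1.32-fold (limma adjusted p = 0.521) and its other probe set at 1.36-fold, and without the siLuc array of experiment 1 these were 1.04-fold and 1.17-fold.

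**Figure D2:**
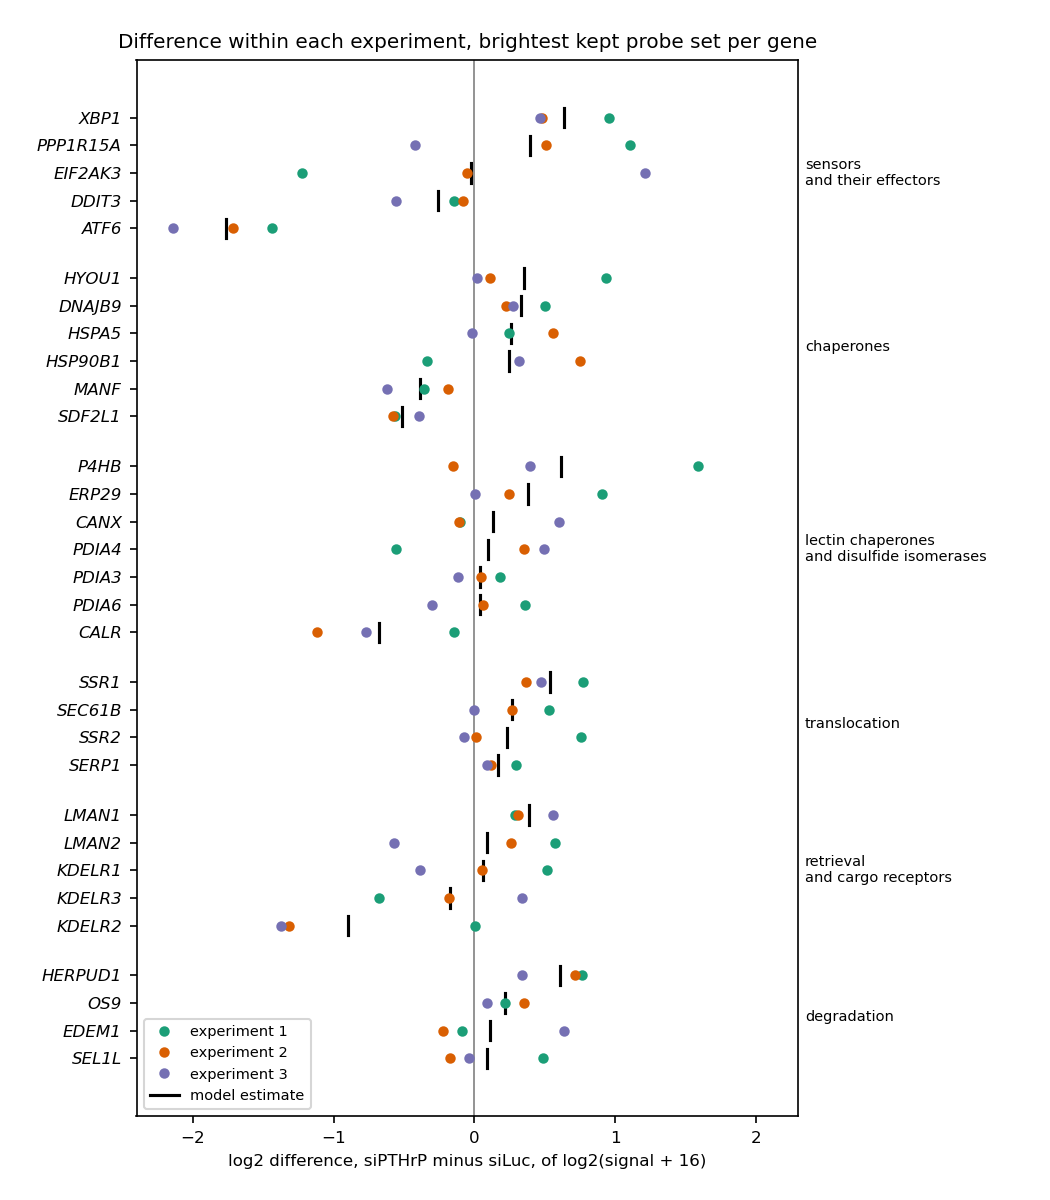
Log2 difference within each experiment (siPTHrP minus siLuc, x axis; coloured points) and the model estimate (black bar) for the brightest kept probe set of each of the 31 member genes, ordered by role. Points of 1 gene often fall on both sides of 0, as for P4HB at 1.587, -0.148 and 0.399. Those of other genes keep 1 side, with ATF6, SDF2L1, HERPUD1 and XBP1 among them.

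Of the 6 chaperone genes kept, 4 lay above 0 and none had an unadjusted p under 0.05, with folds from 0.700 to 1.28. HSPA5 (BiP, GRP78), the main Hsp70 chaperone of the ER and the regulator that holds the sensors inactive, was the brightest. It read 15377, 14189 and 13058 with siLuc and 18209, 20868 and 12917 with siPTHrP. In experiments 1 and 2 siPTHrP was higher, in experiment 3 the arrays were level, and the groups overlapped (1.2-fold, limma adjusted p = 0.524).

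HYOU1, an exchange factor for HSPA5, read 7874, 13363 and 14025 with siLuc and 15092, 14411 and 14227 with siPTHrP. The groups did not overlap, with or without the siLuc array of experiment 1. The size of the fold depended on that array: it was 1.28 with it and 1.06 without it. HSP90B1 (GRP94), the Hsp90 of the ER, showed the opposite dependence, since that array was its highest. Probe set 216449_x_at read 7057, 2560 and 2739 with siLuc and 5600, 4323 and 3424 with siPTHrP, for 1.19-fold with the array and 1.64-fold without it, while 216450_x_at gave 0.894-fold and 1.09-fold.

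SDF2L1, a partner of the HSPA5 cochaperones, and MANF, a secreted factor retained in the ER that is induced by stress, were lower with siPTHrP in all 3 experiments. SDF2L1 read 1623, 1440 and 1579 with siLuc and 1092, 957 and 1196 with siPTHrP, with no overlap and 0.700-fold (limma adjusted p = 0.501). For MANF the signals were 5429, 4442 and 7112 with siLuc and 4244, 3905 and 4618 with siPTHrP, with 1 siPTHrP array above the lowest siLuc array (0.765-fold, limma adjusted p = 0.444). DNAJB9 (ERdj4), a cochaperone of HSPA5, stood at 1.26-fold on 202842_s_at and 0.833-fold on the dim 202843_at. On the latter the siLuc array of experiment 1 was the highest of the 6, at 1380, and without it the fold was 1.37. DNAJC3 (p58IPK) had 1 probe set, which the filter left out at 88 to 298.

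In the lectin and disulfide group, CALR was the only one of 7 genes with its brightest probe set below 0. Calreticulin, its product, binds calcium and holds newly made glycoproteins in the folding cycle. Probe set 212953_x_at read 11831, 21148 and 23416 with siLuc and 10695, 9722 and 13763 with siPTHrP. The siLuc array of experiment 1 lay within the siPTHrP range and the other 2 siLuc arrays above it. The fold was 0.625 (log2 -0.68, SE 0.20, limma adjusted p = 0.342). Without experiment 1 it was 0.520-fold with a limma adjusted p of 0.0468, past the threshold, in a fit with fewer residual degrees of freedom. In that fit 33 of all 13329 probe sets passed, and 2 of 52 member probe sets. Without the siLuc array of experiment 1 alone the fold was 0.507 with a limma adjusted p of 0.257, not past the threshold. The remaining CALR probe sets gave 0.969-fold and 0.962-fold, with differences on both sides of 0. Names ending in _x_at mark probe sets with probes that also match other sequences.

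CANX, calnexin, is the membrane-bound relative of CALR and held the brightest probe set of the members. On 200068_s_at it read 29728, 33833 and 26871 with siLuc and 27770, 31411 and 40732 with siPTHrP, where only experiment 3 was higher (1.10-fold). On 208852_s_at it read 15912, 11817 and 16228 with siLuc and 20401, 19199 and 17298 with siPTHrP. There the siPTHrP arrays lay above all siLuc arrays, at 1.30-fold (limma adjusted p = 0.418). A further probe set, 208853_s_at, gave 0.981-fold.

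The disulfide isomerases form and rearrange disulfide bonds. PDIA3 (ERp57), which works with CALR and CANX, stood at 1.03-fold, and the 4 probe sets of PDIA6 at 0.916-fold to 1.13-fold. PDIA4 gave 1.07-fold and 0.849-fold on its probe sets, or 1.26-fold and 0.837-fold without the siLuc array of experiment 1. ERP29, a non-catalytic relative, stood at 1.31-fold. P4HB, the classical isomerase and a subunit of collagen prolyl hydroxylase, stood at 1.53-fold on 200654_at. Its siLuc signals there were 4271, 11117 and 6076, and its siPTHrP signals 12858, 10030 and 8018. The low value was that of the siLuc array of experiment 1. Without this array the fold was 1.23, and the other P4HB probe set gave 0.875-fold. For ERP29 the fold without it was 1.06.

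All 4 translocation genes measured lay above 0, at 1.12-fold to 1.45-fold. SSR1, a subunit of the TRAP complex beside the SEC61 channel, read 5666, 7341 and 4293 with siLuc and 9693, 9455 and 5973 with siPTHrP on 200891_s_at. Each experiment was higher with siPTHrP, although the groups overlapped, since both arrays of experiment 3 were the lowest of their group. The fold was 1.45 (log2 0.54, SE 0.18, limma adjusted p = 0.360). Its other probe sets gave 1.36-fold, 1.18-fold and 0.962-fold.

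SERP1 (RAMP4), which binds the channel and is known to stabilise membrane proteins under stress, was the brightest of the group. It read 8411, 10383 and 9878 with siLuc and 10347, 11264 and 10491 with siPTHrP on 200971_s_at, at 1.12-fold with overlapping groups, and its dimmer probe sets gave 1.11-fold and 0.968-fold, or 0.929-fold and 1.30-fold without the siLuc array of experiment 1. SSR2, another TRAP subunit, stood at 1.18-fold and the channel subunit SEC61B at 1.2-fold. In SSR2, SEC61B and SERP1 the siLuc array of experiment 1 was the lowest of the 6, and without it their folds were 1.03, 1.02 and 1.06.

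Retrieval receptors did not move together. KDELR1, KDELR2 and KDELR3 bind the KDEL signal at the end of escaped chaperones in the Golgi and return them to the ER. KDELR2 read 4622, 7742 and 7287 with siLuc and 4627, 3105 and 2809 with siPTHrP. Both arrays of experiment 1 were alike, at a log2 difference of 0.002, while experiments 2 and 3 gave -1.314 and -1.37. The fold was 0.538 (log2 -0.89, SE 0.28, limma adjusted p = 0.347). Without experiment 1 it was 0.394-fold with a limma adjusted p of 0.00966, in a fit where 33 of all 13329 probe sets passed. Without only the siLuc array of that experiment the fold was 0.458 with a limma adjusted p of 0.257, not past the threshold.

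KDELR1, the brightest of the group by mean log2 signal, read 4295, 4263 and 6180 with siLuc and 6146, 4438 and 4716 with siPTHrP. Its differences of 0.515, 0.058 and -0.389 had no common sign (1.04-fold). KDELR3 stood at 0.886-fold on 207265_s_at and 0.773-fold on 204017_at, and 207264_at did not pass the filter, with signals from 36 to 307. The cargo receptor LMAN1 (ERGIC-53), which carries glycoproteins from the ER to the Golgi, was higher in all 3 experiments on both of its probe sets, at 1.31-fold and 1.68-fold. These were dim, from 271 to 1408, with SEs of 0.384 and 0.567 on the log2 scale. Without the siLuc array of experiment 1 the folds of LMAN1 were 1.58 and 2.03. Its relative LMAN2 (VIP36) stood at 1.06-fold, and its second probe set did not pass the filter: it read 1544 on the siLuc array of experiment 1 and 51 to 321 on the others.

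Degradation genes were all at or above 1.07-fold on their brightest probe sets. HERPUD1, an ER membrane protein that organises the ubiquitin ligase complex for misfolded proteins and is strongly induced by ER stress, was higher with siPTHrP in each experiment. It read 4738, 4510 and 5090 with siLuc and 8055, 7436 and 6453 with siPTHrP. All siPTHrP arrays were above all siLuc arrays, and the means were 4779 ± 292 and 7315 ± 808 (SD, n = 3). The fold was 1.52 (log2 0.61, SE 0.18, limma adjusted p = 0.342), and it was also 1.52 without the siLuc array of experiment 1.

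The other degradation genes showed smaller differences. OS9, a lectin that selects glycoproteins for destruction, stood at 1.17-fold and 0.932-fold on its probe sets. EDEM1, a mannose-trimming protein that marks misfolded glycoproteins, stood at 1.08-fold, with log2 differences of -0.086, -0.223 and 0.636. SEL1L, the scaffold of the ligase HRD1, gave 1.07-fold, 0.809-fold and 0.994-fold. Its remaining probe set, 202063_s_at, did not pass the filter and read 1225, 197 and 556 with siLuc and 213, 148 and 60 with siPTHrP.

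**Figure D3:**
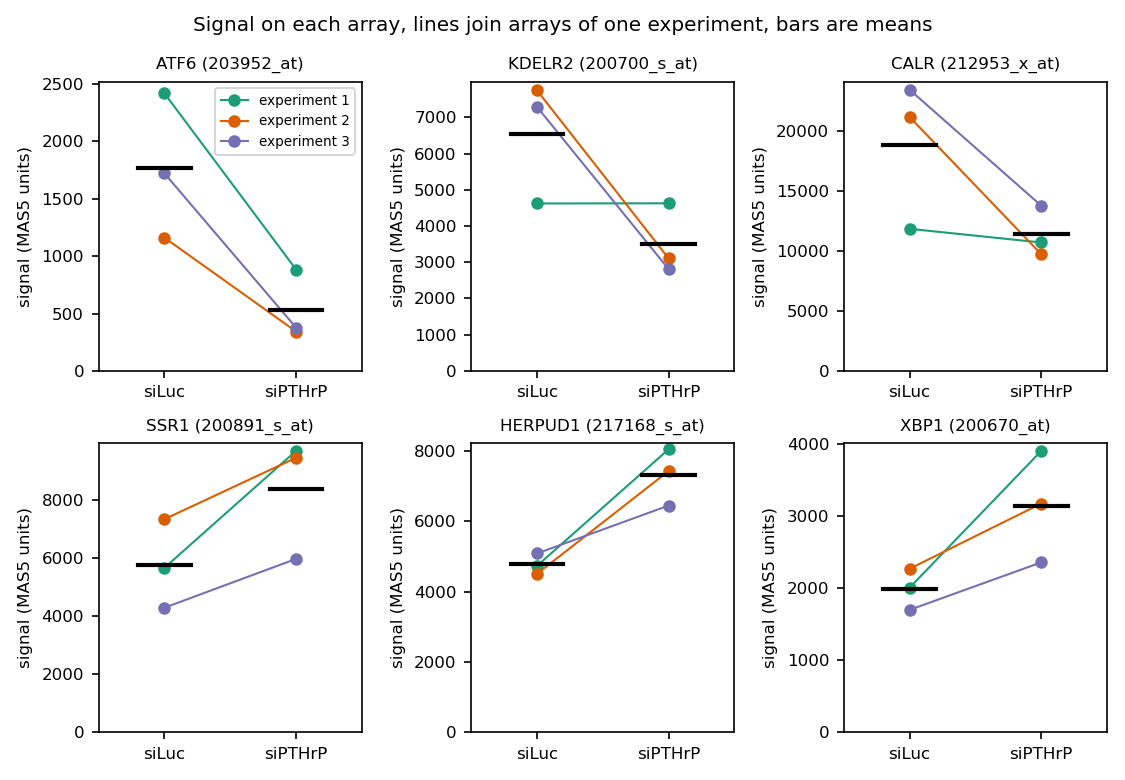
Signal (MAS5 units, linear y axes from 0) on each of the 6 arrays for the 6 member probe sets with an unadjusted p under 0.05, with lines joining the arrays of 1 experiment and black bars at group means. The lines of KDELR2 and CALR are nearly level in experiment 1, where siLuc read 4622 and 11831, and steep in experiments 2 and 3.

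Probe sets of the same gene often disagreed. Of the 15 member genes with several kept probe sets, 4 had all of them on the same side of 0 (PPP1R15A, CALR, KDELR3 and LMAN1) and 11 had them on both. For CALR this side rested on values of -0.045 and -0.055 beside the -0.68 of 212953_x_at. With the mean over each gene's kept probe sets in place of the brightest, 21 of 31 genes lay above 0 and the median was 0.061. Of the 6 member probe sets with an unadjusted p under 0.05, those of XBP1, HERPUD1 and KDELR2 were the only kept ones of their gene.

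**Figure D4:**
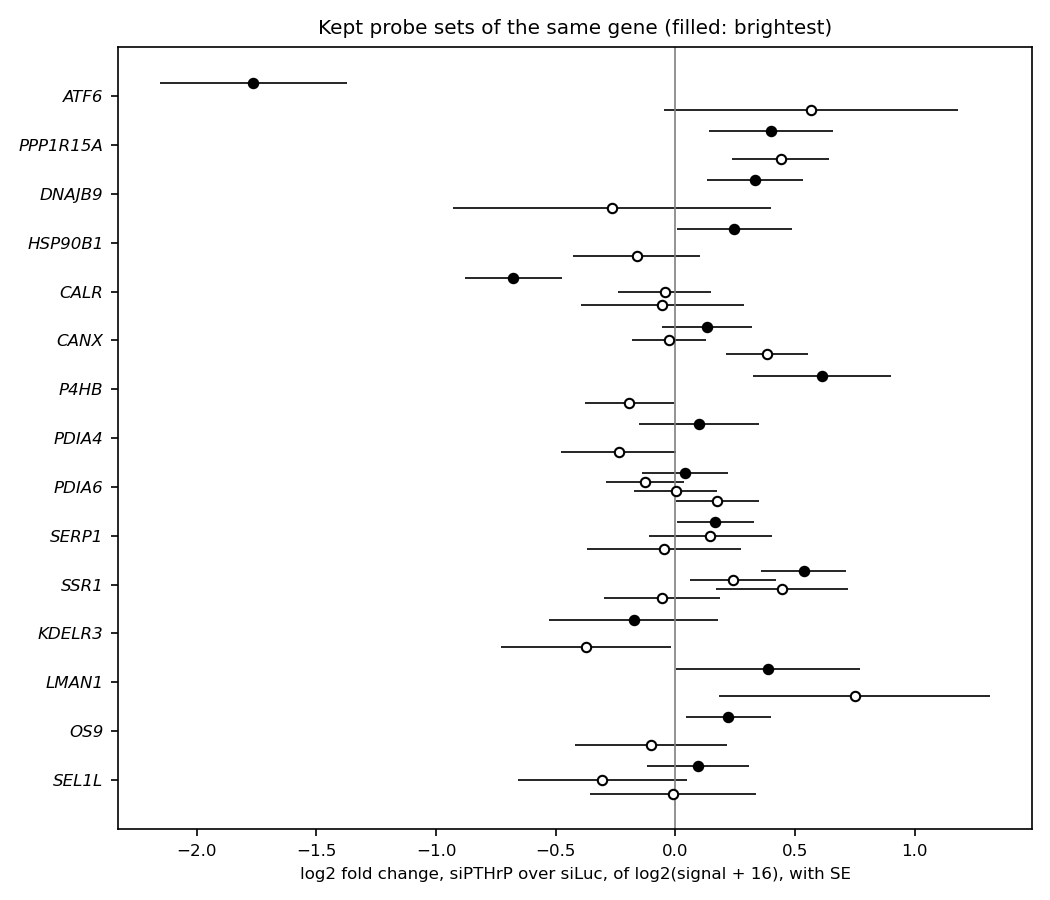
Log2 fold change (siPTHrP over siLuc, x axis) with its SE (bars) for each kept probe set of the 15 member genes that have several; the filled point is the brightest. The 2 probe sets of ATF6, at -1.76 and 0.57, lie farthest apart.

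The 10 member genes with an ERSE or ERSE-II match were not moved in 1 direction. By brightest probe set 8 lay above 0 and 2, CALR and SDF2L1, below, with a median log2 fold change of 0.21. Of the 19 kept members whose windows held no match, 14 lay above 0, with a median of 0.11. The highest fold was 1.55 with a match (XBP1) and 1.53 without (P4HB), and the lowest was 0.625 with a match (CALR) and 0.294 without (ATF6).

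Further genes of the pathway were taken from 5 lists of 132 genes, of which 111 were on the array by name and 108 passed the filter. By brightest probe set 71 of these (65.7%) lay above 0, with a median of 0.15. Over all 8121 genes 52.7% did, with a median of 0.033. The lists' median was 0.255, 0.075 and 0.029 in experiments 1, 2 and 3, against 0.088, -0.037 and -0.004 over all genes. It was thus largest in the pair that holds the outlying siLuc array. Of the 108 genes, 14 had an unadjusted p under 0.05 (13%, where 12.6% of all 8121 genes had). None passed after adjustment. The 14 were 10 higher and 4 lower with siPTHrP. ERN1, the gene of the third sensor IRE1, read 1954, 1277 and 1054 with siLuc and 824, 663 and 716 with siPTHrP. It had 1 probe set, with all siPTHrP arrays below all siLuc arrays at 0.535-fold (limma adjusted p = 0.402), and 0.635-fold without the siLuc array of experiment 1. Transcripts of ATF6, on its brightest probe set, and of ERN1 thus had lower values with siPTHrP and that of EIF2AK3 had no common sign.

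In the stress signalling list, with a median of 0.19 over 17 genes, NFE2L2, a transcription factor that PERK can phosphorylate, stood at 1.82-fold and the pseudokinase TRIB3 at 1.63-fold. Export and retrieval coats had 20 of 26 genes above 0 (76.9%) and a median of 0.18. In experiments 1, 2 and 3 their median was 0.417, 0.21 and 0.035. Among them ARF4, a GTPase of Golgi traffic, stood at 1.90-fold and SAR1A, which starts the COPII coat, at 1.63-fold. ARF4 read 9683, 11017 and 8563 with siLuc and 22497, 17091 and 16442 with siPTHrP, without overlap (limma adjusted p = 0.287). Folding and glycan trimming genes had a median of 0.056 over 24 genes. Among them the calcium-binding proteins CALU and RCN2 stood at 1.60-fold and 1.63-fold, the collagen chaperone SERPINH1 at 1.48-fold and the lectin MLEC at 0.707-fold.

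Translocation and glycosylation genes beyond the members had 13 of 24 above 0 and a median of 0.020. SRP9, of the signal recognition particle, stood at 1.44-fold, the signal peptidase subunits SEC11A and SPCS2 at 1.41-fold and 1.37-fold, and the receptor subunit SRPRA at 0.762-fold. SEC61A2, a form of the channel's main subunit, is named after its values were seen, as the lowest of all 5 lists at 0.366-fold (limma adjusted p = 0.402), or 0.551-fold without the siLuc array of experiment 1, its highest. In the degradation list 9 of 17 genes lay above 0, with a median of 0.085, and 0 had an unadjusted p under 0.05 in limma.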

How the data were processed

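Total RNA was the starting material, biotin the label and Affymetrix human gene arrays the platform, per the labels. The deposited values are linear signal intensities made with MAS5, per the submitters' processing notes, with version and settings not given in the sources used here; their trimmed means were alike (1500.4 to 1500.6), so no scaling was added. On the siLuc array of experiment 1, 90.1% of the values carried decimals, against 0% on each other array. Whether this array was processed in another way was not tested. MAS5 subtracts mismatch signal, which makes dim values noisy.

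A siLuc title carries no number, and elimination places it in experiment 1. For the siLuc sample of experiment 3 the title was followed, although its description carries number 2. Differences and signs within experiments rest on this assignment. The design text compares RNAs of 1 experiment, hence the block. Deviations of paired arrays correlated at -0.0124, 0.157 and 0.157.

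Analysis used limma 3.58.1 in R 4.3.3 on log2(signal + 16), across probe sets with a mean at or above the 40th percentile (a signal of about 376), with an intensity trend, two-sided p-values and Benjamini-Hochberg adjustment at 0.05. The offset shrinks folds of dim probe sets. Folds are siPTHrP over siLuc. Steps were tested on simulated data. The arrays' number limits precision.

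Probe sets were named from the platform annotation, through Entrez identifiers for 19059 of 19071 with 1 gene; 1043 had several and 2169 none. Probe sets that list HSP90B1 with another gene were not used. Windows came from RefSeq. Described with full values were sensors and effectors, the brightest member of each role and members with an unadjusted p under 0.05. Of other pathway genes at most 4 per list with such a p were to be named. SEC61A2 was named beyond this limit, after its values were seen. Some further members were given in full after their values were seen. Members and lists were chosen with earlier results of these data known.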

Additional observations from a re-analysis of the deposited data

How the results depend on the processing

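The count of 0 probe sets past the threshold was also found with no replicate block (0, with 5 member probe sets at an unadjusted p under 0.05), with other offsets, scalings and filters, without the intensity trend, and without the siLuc array of experiment 1. It was 177 with array weights, 5 without _x_at and _s_at probe sets, and 33 to 215 when 1 experiment was left out. Among members 3 of 54 probe sets passed with array weights, where 177 of all 13329 did. These were KDELR2, ATF6 and CALR (adjusted p = 0.0107, 0.0196 and 0.0146 in limma). Without experiment 1, 2 of 52 member probe sets passed, those of KDELR2 and CALR, where 33 of all did. Without experiment 2 or 3, 0 of 54 passed, where 47 and 215 of all did. Member probe sets at an unadjusted p under 0.05, 6 in the report, numbered 10 with median centring (15.9% of all probe sets had such a p), 1 without the trend (9.94%), 10 with array weights (17.4%), 3 of 23 without _x_at and _s_at probe sets (12.6%) and 5 to 12 with 1 experiment left out (9.96% to 13.8%), the 12 without experiment 3 (12.2%). Member genes above 0 numbered 12 of 21 without _x_at and _s_at probe sets. Centring on medians over all probe sets moved the median of all genes from 0.033 to 0.359 and that of members to 0.458. The 6 probe sets kept their direction in the 14 alternatives run for ATF6 and XBP1 and the 13 run for the others. Those others are _s_at or _x_at probe sets. Folds ran from 0.263 to 0.369 for ATF6, 0.394 to 0.675 for KDELR2 and 0.507 to 0.784 for CALR. They ran from 1.32 to 1.82 for SSR1, 1.39 to 1.91 for HERPUD1 and 1.39 to 1.95 for XBP1. The 6 were picked by their p in these same arrays, and leaving out the block, the filter or the trend does not change an estimate. Their kept direction is thus no independent support. Of 415 values of 31 probe sets, 27 turned sign, and the cause was not tested. With quantile normalization the log2 fold change was -0.108 for PDIA3, -0.13 for PDIA6, 0.339 for EIF2AK3 and -0.057 for KDELR1. With median centring it was 0.303 for EIF2AK3, 0.067 for DDIT3 and 0.152 for KDELR3. With array weights it was -0.02 for PDIA6, -0.064 for SEL1L, 0.215 for EIF2AK3 and -0.033 for KDELR1. Without the siLuc array of experiment 1 it was -0.005 for PDIA6, -0.023 for SEL1L, -0.024 for KDELR1 and -0.048 for LMAN2. With 1 experiment left out it ranged from -0.006 to 0.536 for HSP90B1, -0.103 to 0.251 for CANX, -0.031 to 0.117 for PDIA3, -0.1 to 0.427 for PDIA4, -0.121 to 0.213 for PDIA6, -0.105 to 0.226 for SEL1L, -0.155 to 0.275 for EDEM1, -0.03 to 0.385 for SSR2, -0.166 to 0.287 for KDELR1, -0.43 to 0.079 for KDELR3 and -0.154 to 0.418 for LMAN2. Probe sets with a mean signal under about 376 were tested only in the alternative without the filter.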
